A study of Mus musculus with 9 samples.

Results

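Microglia, the resident macrophages of the brain, carry receptors for the constant (Fc) part of antibodies, and the 7 genes described here are those receptors and their closest partners: Fcrls, Fcgr1, Fcgr3, Fcgr4, Fcgr2b, Fcer1g and Fcgrt. They were picked by gene symbol, out of 18571 genes in the deposited table, because Fcrls stood far above other homeostatic microglial genes in both Alzheimer's model groups relative to wild type. Their levels against wild type are therefore given as a description with no test, and the comparison between the model groups, which did not enter the choice, is tested.

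The libraries came from cortex and hippocampus of mice aged 9 months, 3 per group, after meninges were removed, tissue was digested with papain and CD45-expressing cells were captured on antibody-coated plates. The groups were wild type (WT), APP/PS1 (mice with mutant human amyloid precursor and presenilin transgenes) and APP/PS1:Cx3cr1-CreER:Cx43-flox/flox, called cKO (conditional knockout) here, which also carries a tamoxifen-inducible Cre recombinase under Cx3cr1 control and floxed alleles of the gap junction gene Gja1 (connexin 43). The labels give every group the same tamoxifen course (0.1 mg/g by gavage on 5 days at 8 months) and give neither Cre nor floxed alleles to WT or APP/PS1, so no group has the Cre without the floxed alleles. Cx3cr1 is active in microglia and also in some monocytes and border macrophages, so recombination in this line is not limited to microglia. Nothing in the labels says whether a library is 1 mouse or a pool, and p-values therefore measure only the spread between these libraries, which may be technical.

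Library totals were 18907680 to 19565354 estimated counts. Across the table, the groups lay far apart relative to their spread: 14696 genes passed a filter on low counts, and the biological coefficient of variation was 3.14%. Gja1 had 727, 688 and 788 estimated counts in APP/PS1 and 514, 484 and 539 in cKO, a difference of −0.56 on the log2 scale (SE 0.06, adjusted p = 7.95e-09 by edgeR's quasi-likelihood test). Which part of the transcript those counts cover is not given in the sources used here. Astrocytes, which also express Gja1, had markers summing to 1047 to 1074 CPM (counts scaled to a common depth) in APP/PS1 and 852 to 865 in cKO, and the part of that difference in the Gja1 value was not tested. The Y-linked gene Ddx3y had 4137 to 4538 estimated counts in the WT and APP/PS1 libraries and 0, 1 and 2 in cKO, so sex-linked expression and genotype cannot be told apart in any comparison with cKO. All 11 microglial markers were present in every library, and their sum was 21223 to 21649 CPM in WT, 23548 to 23978 in APP/PS1 and 21345 to 21671 in cKO. Neutrophil markers, all 14 of them detected, summed to 3875 to 3937 CPM in WT, 1477 to 1547 in APP/PS1 and 10200 to 10324 in cKO. In bulk samples such as these, fewer cells of a type and less RNA per cell cannot be told apart.

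As background, Fc gamma receptors bind IgG on immune complexes or coated targets. The activating receptors FcγRI (Fcgr1), FcγRIII (Fcgr3) and FcγRIV (Fcgr4) reach the membrane and signal through a shared chain, FcRγ (Fcer1g), whose cytoplasmic motif (an ITAM) is phosphorylated by Src-family kinases and recruits the kinase Syk. The inhibitory receptor FcγRIIb (Fcgr2b) carries the opposing motif and recruits the phosphatase SHIP-1 (Inpp5d). FcRn, made of the Fcgrt product and β2-microglobulin, binds IgG and albumin in endosomes and returns them from degradation. Fcrls encodes an Fc receptor-like scavenger receptor without an established ligand, used as a marker of homeostatic microglia in mice.

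Fcrls lies on mouse chromosome 3 (GRCm38.p6, chr3:87250736-87263765, minus strand), next to other Fc receptor-like genes. Fcgr2b (chr1:170960558-170976071, minus), Fcgr4 (chr1:171018926-171029761, plus), Fcgr3 (chr1:171051169-171065915, minus) and Fcer1g (chr1:171229572-171234349, minus) share a stretch of chromosome 1. Fcgr1 (chr3:96282909-96293969, minus) and Fcgrt (chr7:45092993-45103822, minus) lie apart from them. No protein-coding gene overlapped any of the 7. Fcgr2b, Fcgr3 and Fcgr4 are close paralogs, and since the handling of reads that match more than 1 of them is not given in the sources used here, the split of counts among them is uncertain.

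The sequences shown come from before an annotated start of Fcrls, of its neighbour Fcrl1, whose levels moved together, and of Fcgr1. All 7 genes had a RefSeq start (GRCm38.p6), which need not be the outermost start of the gene, and the 250 bases before it were searched on both strands for GAGGAAG, a core of sites for the myeloid factor PU.1, and for TTCNNNGAA, the core of sites for STAT factors. GAGGAAG occurred once for Fcrls, Fcgr1 and Fcgr4 and once in each of the overlapping windows of Fcgr3, and it was found at 2 places for Fcrl1. Neither motif was found in these letters before Fcgr2b, Fcer1g or Fcgrt, and TTCNNNGAA occurred only before Fcgr1. Of 32851 windows of this length before mouse gene starts, 10.6% held GAGGAAG and 7.02% held TTCNNNGAA, so either match is common and describes the letters only. The stretch of Fcrls (chr3:87263600-87263677, minus strand, 78 bases between annotated exons) lies inside the span of the gene, since the start used is an internal one. That of Fcrl1 (chr3:87376137-87376352, plus strand, 216 bases) ends at the outermost start of the gene, and the second match for Fcrl1 lies past that point and is not shown. That of Fcgr1 lies at chr3:96293970-96294219 (minus strand), with capitals marking the motifs and CTTCCTC being GAGGAAG read on the other strand.
Fcrls: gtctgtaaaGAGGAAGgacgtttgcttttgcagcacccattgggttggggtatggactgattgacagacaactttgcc
Fcrl1: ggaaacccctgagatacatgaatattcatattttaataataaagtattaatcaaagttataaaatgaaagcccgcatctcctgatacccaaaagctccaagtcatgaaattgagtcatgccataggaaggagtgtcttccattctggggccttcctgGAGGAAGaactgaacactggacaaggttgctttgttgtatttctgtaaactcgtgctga
Fcgr1: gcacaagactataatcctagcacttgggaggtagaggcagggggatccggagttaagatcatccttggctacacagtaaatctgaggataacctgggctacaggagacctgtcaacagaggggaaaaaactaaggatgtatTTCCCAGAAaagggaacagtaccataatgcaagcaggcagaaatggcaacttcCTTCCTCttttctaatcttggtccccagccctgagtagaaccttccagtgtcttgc

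All 7 genes passed the filter, and all 7 were lower in cKO than in APP/PS1 by edgeR's quasi-likelihood test at an adjusted p of 0.05 over all tested genes, with no overlap between the libraries of the groups. In the same comparison 55.0% of all tested genes were called, 27.7% were called lower and 27.3% higher, and 59.7% did not overlap. The 7 log2 changes ran from −0.91 to −0.16 with a median of −0.30, beside a median of −0.01 over all genes. Against WT, 5 of the 7 lay higher in APP/PS1 with no overlap, Fcgrt lay lower with no overlap, and Fcgr4 overlapped, with a median log2 change of 0.64 over the 7 beside −0.04 over all genes. In that comparison 59.0% of all genes were called (26.9% higher and 32.0% lower) and 63.5% did not overlap. In cKO against WT, 5 of the 7 lay higher and 2 (Fcgr4 and Fcgrt) lower, with a median of 0.34 beside −0.01, and none overlapped. Of all genes, 47.7% were called there (24.7% higher and 23.0% lower) and 54.6% did not overlap. Of the 7, 5 were called lower between the model groups on log2(TPM + 1), where Fcgr4 and Fcgrt lost the call, and 6 with DESeq2's test or with offsets for transcript length, where Fcgr4 lost it. The TPM scale moved the median of all genes to 0.14 between the model groups, −0.35 in APP/PS1 against WT and −0.17 in cKO against WT, and most members moved with it, as given beside each. The comparisons with WT share the WT libraries, and they entered the choice of the genes.

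**Figure D1:**
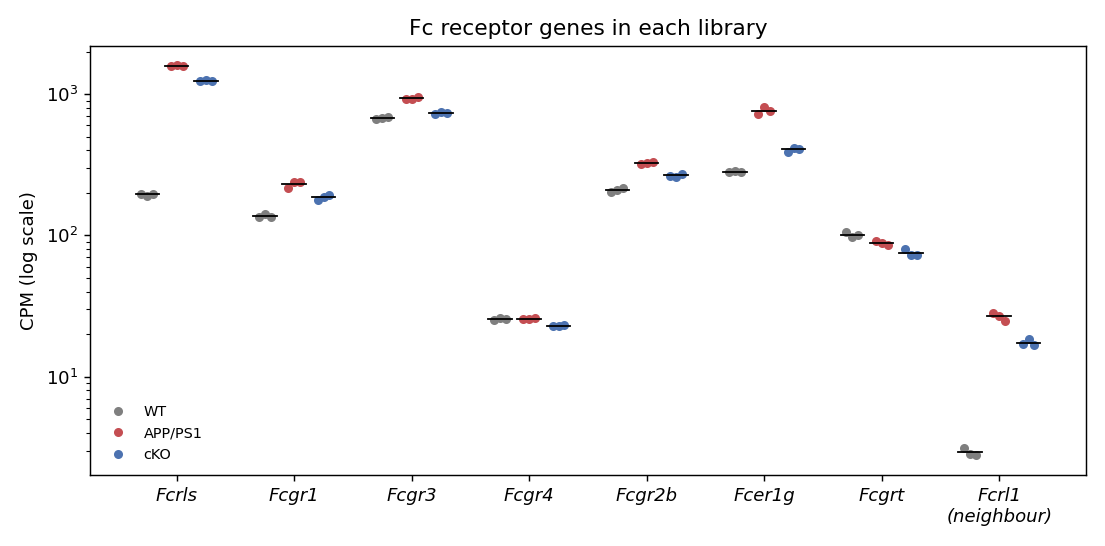
Depth-scaled counts (CPM, log axis) of the 7 genes and the neighbouring gene Fcrl1 in each library, with 3 libraries per group as points and the group mean as a line. Fcrls and Fcrl1 stand far above WT in both model groups, Fcgr4 overlaps between WT and APP/PS1, and every one of the 7 has its cKO points below its APP/PS1 points.

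Fcrls showed the widest range of the 7. It had 198, 191 and 197 CPM in the WT libraries, 1583, 1596 and 1569 in APP/PS1 and 1246, 1253 and 1239 in cKO, from estimated counts of 3972, 3869 and 4018, then 28983, 29650 and 29121, then 23525, 23960 and 23784. The model libraries all lay far above WT, and cKO lay between the other groups but close to APP/PS1. Against WT the log2 change was 3.02 ± 0.03 (SE) in APP/PS1, an 8.11-fold higher level, and 2.67 ± 0.03 in cKO, 6.38-fold higher, which put Fcrls at rank 50 and rank 58 of 14696 genes ordered by change. Between the model groups Fcrls fell by 21.3% in cKO (log2 change −0.34, SE 0.03, adjusted p = 7.23e-12, lower in 3 of 3 libraries), or by 0.15 on log2(TPM + 1).

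The level of Fcrls against WT was set beside a list of 25 other genes of homeostatic microglia, whose log2 changes in APP/PS1 ran from −0.56 to 1.24 with a median of −0.02 (0.07 with length offsets). Next below Fcrls was Gpr34, a lysophosphatidylserine receptor, at 1.24, so Fcrls stood 3.42-fold above it, and then Cst3 (cystatin C) at 1.15. At the other end of this list were Adgrg1 (the adhesion receptor GPR56) at −0.56 and Csf1r (the receptor for the survival factor CSF1) at −0.48. In cKO against WT the 25 ran from −1.0 to 0.76, with a median of −0.06. The next gene there was the matrix protein gene Sparc at 0.76, 3.77-fold below Fcrls. The lowest were Crybb1 at −1.0 and the fractalkine receptor gene Cx3cr1 at −0.90. Cx3cr1 fell by 0.88 (SE 0.03) between the model groups, and only cKO carries the Cre placed under Cx3cr1 control. The part of that Cre allele in the Cx3cr1 value was not tested. Since the gap between Fcrls and the other genes of this list was the reason for the choice, it is given as a description.

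**Figure D2:**
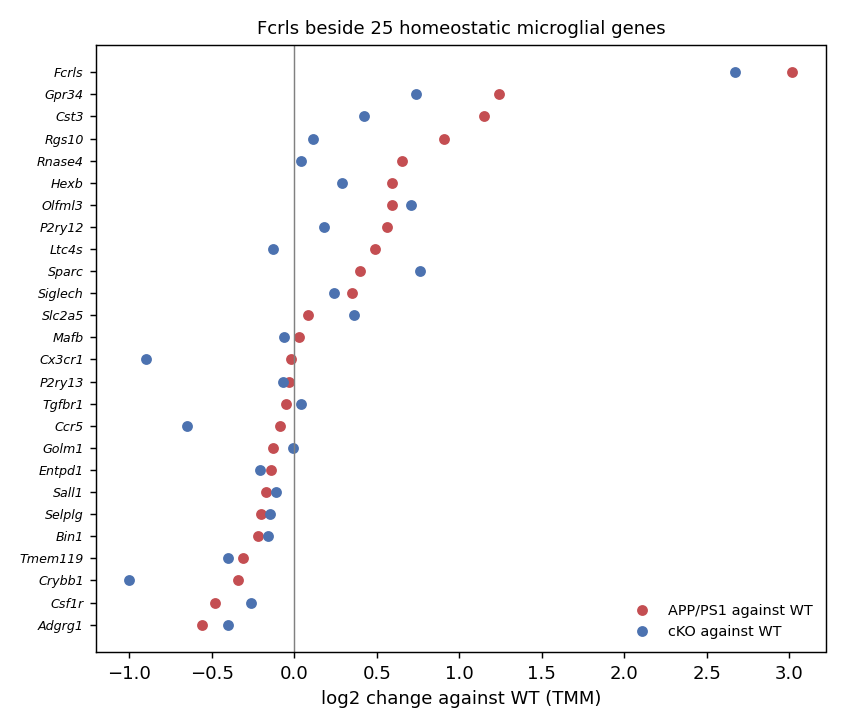
Log2 change against WT of Fcrls and 25 other homeostatic microglial genes, in APP/PS1 (red) and cKO (blue), ordered by the change in APP/PS1. Fcrls lies at 3.02 and 2.67, and the other genes lie between −1.0 and 1.24.

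Between the model groups, the homeostatic list had 7 genes higher and 12 lower in cKO, with a median of −0.09 that turned to 0.11 on log2(TPM + 1). Of all tested genes, 27.3% were called higher and 27.7% lower in that comparison. A list of 18 genes that microglia raise around amyloid plaques (among them Clec7a, Itgax and Apoe) had 17 higher and 1 lower in APP/PS1 against WT, with a median of 1.86, and 18 of 18 higher in cKO against WT, with a median of 1.95. Between the model groups, 6 of these 18 were higher and 9 lower in cKO, with a median of −0.10 that turned to 0.09 on log2(TPM + 1) and to 0.11 with length offsets. The genes nearest to Fcrls in pattern were sought among 9162 genes with at least 10 CPM on average, by the root mean square difference of log2 CPM centred on WT over the 9 libraries. The 5 nearest genes were Clec7a (0.101), which encodes the β-glucan receptor dectin-1, Actr3b (0.101), a subunit gene of the Arp2/3 complex, Itgax (0.138), the integrin CD11c, Fcrl1 (0.177) and Cox6a2 (0.281). Their log2 changes between the model groups were −0.55 for Clec7a, −0.29 for Actr3b, −0.20 for Itgax and −0.36 for Cox6a2 (0.17 with length offsets), and Fcrl1 is described next. All 9 libraries entered the search, so these values are part of what chose the genes and are given with no test. Actr3b, Fcrl1 and Cox6a2 had 2.06, 2.93 and 2.35 CPM in WT and reached the mean of 10 CPM only through the model groups.

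Fcrl1, a gene best known from B cells whose product has activating motifs, lies 113 kb from Fcrls (chr3:87376353-87403967, plus strand). It had 63, 58 and 57 estimated counts across WT libraries, 514, 503 and 462 in APP/PS1 and 321, 353 and 321 in cKO. The groups did not overlap, and the order was that of Fcrls. Its log2 change was 3.18 ± 0.09 (SE) in APP/PS1 against WT, 2.57 ± 0.10 in cKO against WT and −0.62 ± 0.07 between the model groups, given with no test because the pattern over these libraries is what brought the gene up. The level of Fcrl1 was low, at 15.2 ± 0.835 FPKM (fragments per kilobase of transcript, scaled for depth, SD, n = 3) in APP/PS1 beside 755 for Fcrls on the same scale. B cell markers summed to 79.9 to 84.8 CPM in WT, 51.8 to 56.8 in APP/PS1 and 60.0 to 65.5 in cKO, and 6 of these 8 fell and none rose in APP/PS1 against WT. Their part in the Fcrl1 values was not tested.

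Among 11 other tested genes within 500 kb of Fcrls, log2 changes in APP/PS1 against WT ran from −0.98 to 3.18 with a median of −0.35, and Fcrl1 was the only one more than 2-fold higher. Cd5l, which encodes a scavenger receptor-like secreted protein and lies between Fcrls and Fcrl1, gave 0.54 (SE 0.34, adjusted p = 0.181) at a mean of 0.543 CPM in WT. Fcrl5, on the far side of Fcrl1, gave 0.09 (SE 0.19, adjusted p = 0.717) at 3.31 CPM. Kirrel, the nearest gene on the other side, 76.0 kb away, fell by 0.46 (adjusted p = 3.15e-05). None of these 3 genes rose past the test.

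**Figure D3:**
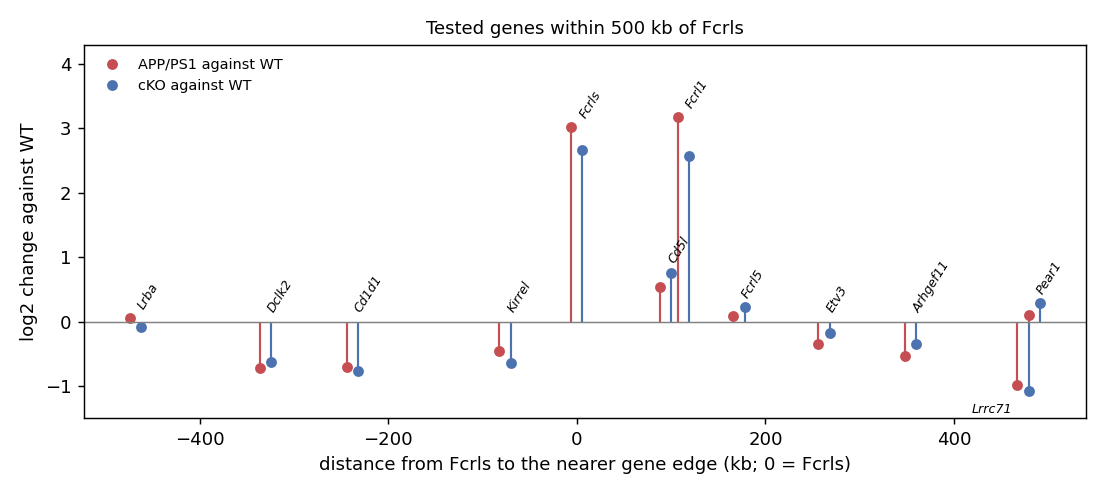
Log2 change against WT of the 12 tested genes within 500 kb of Fcrls, by distance from Fcrls to the nearer edge of each gene, in APP/PS1 (red) and cKO (blue, drawn slightly to the right). Fcrls and Fcrl1 stand at 2.57 or more in both, and the other 10 genes lie between −1.08 and 0.76.

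Of the activating receptors, Fcgr3 was the most abundant and Fcgr4 the least. Fcgr1, the high-affinity IgG receptor, had 136, 141 and 135 CPM across WT libraries, 218, 238 and 237 in APP/PS1 and 179, 188 and 194 in cKO. Its groups did not overlap, and cKO lay about midway. The log2 change against WT was 0.75 ± 0.04 in APP/PS1 and 0.45 ± 0.04 in cKO, and between the model groups Fcgr1 fell by 0.30 (SE 0.04, adjusted p = 9.73e-08). On log2(TPM + 1) these values were 0.35, 0.25 and −0.11.

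Fcgr3, the low-affinity receptor for IgG complexes, had 662, 675 and 686 CPM across WT libraries, 916, 929 and 957 in APP/PS1 and 722, 749 and 741 in cKO. Its cKO libraries lay above WT, but closer to WT than to APP/PS1. The log2 change against WT was 0.47 ± 0.03 in APP/PS1 and 0.13 ± 0.03 in cKO, and Fcgr3 fell by 0.34 between the model groups (SE 0.03, adjusted p = 4.17e-11). The values against WT depended on the scaling. In APP/PS1 the change was 0.33 with library totals or FPKM and 0.08 on log2(TPM + 1). In cKO it was 0.02 with library totals or FPKM, 0.06 with length offsets and −0.07, the opposite sign, on log2(TPM + 1). On that last scale it was −0.15 between the model groups.

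Fcgr4, which binds certain IgG subclasses and is also abundant on neutrophils, had 25.1, 26.1 and 25.5 CPM across WT libraries, 25.5, 25.6 and 26.2 in APP/PS1 and 22.7, 22.8 and 23.4 in cKO. WT and APP/PS1 overlapped (log2 change 0.01 ± 0.05), and Fcgr4 was the only one of the 7 for which they did. The cKO libraries lay below both, at −0.15 ± 0.05 against WT, or −0.22 with length offsets, −0.25 or −0.26 with FPKM or library totals and −0.34 on log2(TPM + 1). In APP/PS1 against WT the sign turned with library totals (−0.13), FPKM (−0.12 or −0.13 by pseudocount), length offsets (−0.22) and TPM (−0.37, with the median of all genes at −0.35). It fell by 0.16 between the model groups (SE 0.06, adjusted p = 0.0139). That call was lost with DESeq2's test (−0.16, adjusted p = 0.138), on log2(TPM + 1), where the sign turned (0.03, limma adjusted p = 0.493), and with a correction for transcript length (−0.00889, adjusted p = 0.907). Neutrophil markers, none of them at 0, summed to 3875 to 3937 CPM in WT, 1477 to 1547 in APP/PS1 and 10200 to 10324 in cKO, and their part in the Fcgr4 values was not tested.

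Fcgr2b, the inhibitory receptor, had 204, 208 and 216 CPM across WT libraries, 321, 324 and 332 in APP/PS1 and 263, 260 and 274 in cKO. As for Fcgr1, cKO lay midway and no groups overlapped. The log2 change against WT was 0.64 ± 0.03 in APP/PS1 and 0.34 ± 0.03 in cKO, and Fcgr2b fell by 0.30 between the model groups (SE 0.03, adjusted p = 6.81e-09). On log2(TPM + 1) these values were 0.25, 0.15 and −0.10.

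Fcer1g, the shared signalling chain, had the lowest of the 7 log2 changes between the model groups with TMM scaling (edgeR's scaling of library sizes). It had 283, 288 and 279 CPM across WT libraries, 727, 805 and 762 in APP/PS1 and 391, 415 and 411 in cKO. The cKO libraries lay well below APP/PS1 and above WT. Against WT the log2 change was 1.43 ± 0.03 in APP/PS1 (2.70-fold) and 0.52 ± 0.03 in cKO, and between the model groups Fcer1g fell by 0.91 (SE 0.03, adjusted p = 3.11e-18), rank 615 from the lowest of 14696 genes. On log2(TPM + 1) the values were 1.04, 0.32 and −0.72.

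Changes in these libraries went with transcript length, and Fcer1g is short. Genes were put into 10 bins by length. In the shortest bin (median 881 nucleotides) the median log2 change was −0.51 in cKO against APP/PS1 and 0.61 in APP/PS1 against WT, and in the next bin it was −0.16 and 0.17. From the third bin on it stayed between −0.12 and 0.05. Fcer1g, at 609 nucleotides from the deposited counts and FPKM, belongs to the first bin, and Fcgr3 (1302), Fcgr4 (1201) and Fcgr2b (1360) belong to the second. Fcrls (2020), Fcgrt (1691), Fcrl1 (1707) and Fcgr1 (2540) are longer. With offsets that set each bin to the same median, Fcer1g changed by −0.38 between the model groups and by 0.73 in APP/PS1 against WT, Fcgr3 by −0.19 and 0.24, and Fcgr2b by −0.14 and 0.41. Fcgr1 gave −0.36 and 0.81 and Fcrls −0.32 and 2.97, so with offsets the change of Fcer1g between the model groups lay close to theirs. What the length trend comes from was not tested.

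**Figure D4:**
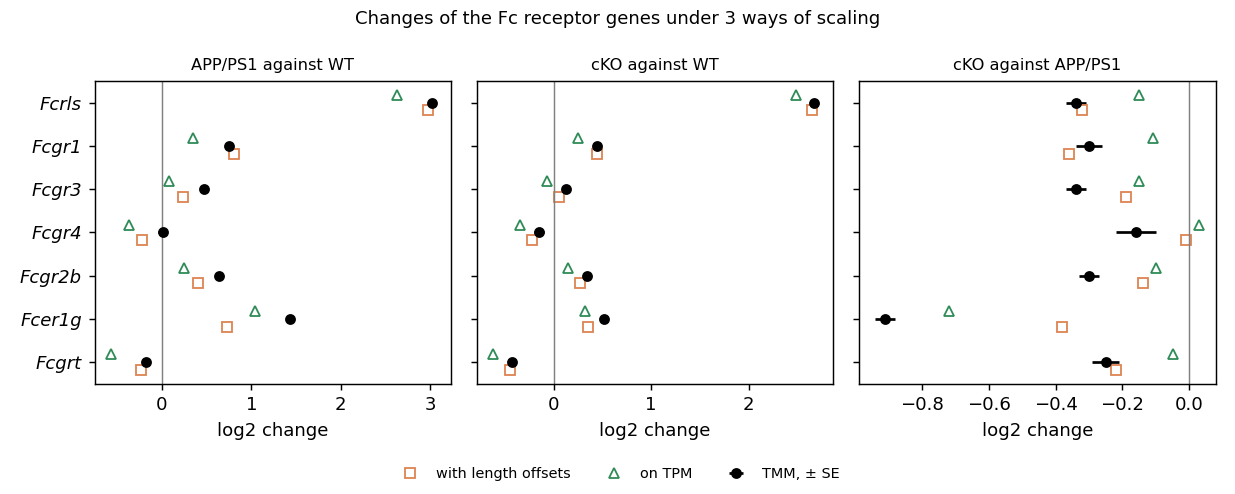
Log2 change of each gene in 3 comparisons, with TMM scaling (black, ± SE from 3 libraries per group), with offsets for transcript length (squares) and on log2(TPM + 1) (triangles). Fcrls lies at 3.02, 2.97 and 2.63 in APP/PS1 against WT, Fcer1g shrinks with length offsets, and Fcgr4 lies at −0.16, −0.01 and 0.03 between the model groups.

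Fcgrt, the IgG-protecting receptor FcRn, lay below WT in both model groups. Its mean level was 101 ± 3.99 CPM (SD, n = 3) in WT, 88.9 ± 3.24 in APP/PS1 and 75.0 ± 4.21 in cKO, from estimated counts of 2103, 1971 and 2042, then 1685, 1656 and 1588, then 1507, 1380 and 1401, with no overlap between any groups. The log2 change against WT was −0.18 ± 0.04 in APP/PS1 and −0.43 ± 0.04 in cKO, and Fcgrt fell by 0.25 between the model groups (SE 0.04, adjusted p = 3.75e-05). With library totals its change in APP/PS1 against WT was −0.32, with FPKM −0.31 or −0.32, and on log2(TPM + 1) −0.57. On log2(TPM + 1) the change between the model groups was −0.05 (limma adjusted p = 0.384), or −0.19 relative to the median of all genes. Endothelial cells are a known site of FcRn, and their markers summed to 671 to 687 CPM in WT, 691 to 709 in APP/PS1 and 509 to 532 in cKO, with 8 of 10 lower in cKO than in APP/PS1. Their part in the Fcgrt value was not tested. B2m, the partner chain of FcRn, went the other way against WT at 1.40 (SE 0.03, adjusted p = 6.47e-24) and fell by 0.70 between the model groups (SE 0.03, adjusted p = 2.12e-17). B2m is short too (809 nucleotides), and with length offsets these values were 0.71 and −0.16.

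Compared per length, Fcgr3 led in WT at 548 FPKM, followed by Fcer1g (492), Fcgr2b (163), Fcrls (102), Fcgrt (63.0), Fcgr1 (57.3) and Fcgr4 (22.5). In APP/PS1 the order of levels was Fcer1g (1207), Fcrls (755), Fcgr3 (690), Fcgr2b (231), Fcgr1 (87.4), Fcgrt (50.6) and Fcgr4 (20.6). The order was the same in cKO, with 654, 605, 556, 191, 72.4, 43.6 and 18.8 FPKM. No neighbours in these orders overlapped in any group. Fcrls thus moved from the fourth place to the second, and its share of the summed CPM of the 7 genes was 12.0% in WT, 40.0% in APP/PS1 and 42.4% in cKO. That sum was 1626 ± 12.7 CPM (SD, n = 3) in WT, 3953 ± 63.6 in APP/PS1 and 2940 ± 31.3 in cKO.

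The balance of activating to inhibitory receptors was taken as the summed FPKM of Fcgr1, Fcgr3 and Fcgr4 over that of Fcgr2b within each library, which needs no scaling between libraries. Most of the sum was Fcgr3, in APP/PS1 690 FPKM beside 87.4 for Fcgr1 and 20.6 for Fcgr4. The split of counts between Fcgr3 and Fcgr2b is uncertain, as given above. This balance was 3.88, 3.91 and 3.79 in the WT libraries, 3.43, 3.47 and 3.48 in APP/PS1 and 3.33, 3.50 and 3.31 in cKO. The model groups overlapped and differed by −0.0819 (2-sided exact permutation p = 0.4), and both lay below WT. The same receptors over Fcer1g gave 1.25, 1.26 and 1.31 in the WT libraries, 0.679, 0.627 and 0.679 in APP/PS1 and 1.0, 0.979 and 0.985 in cKO. This ratio was 49.4% higher in cKO than in APP/PS1 with no overlap, at the smallest p that 3 libraries against 3 allow (exact permutation p = 0.1). Fcer1g is in a shorter length class than the receptors. With length offsets its log2 change between the model groups was −0.38, beside −0.36 for Fcgr1 and −0.19 for Fcgr3, where without offsets it was −0.91 beside −0.30 and −0.34, so the gap behind this ratio was smaller once length was adjusted for.

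**Figure D5:**
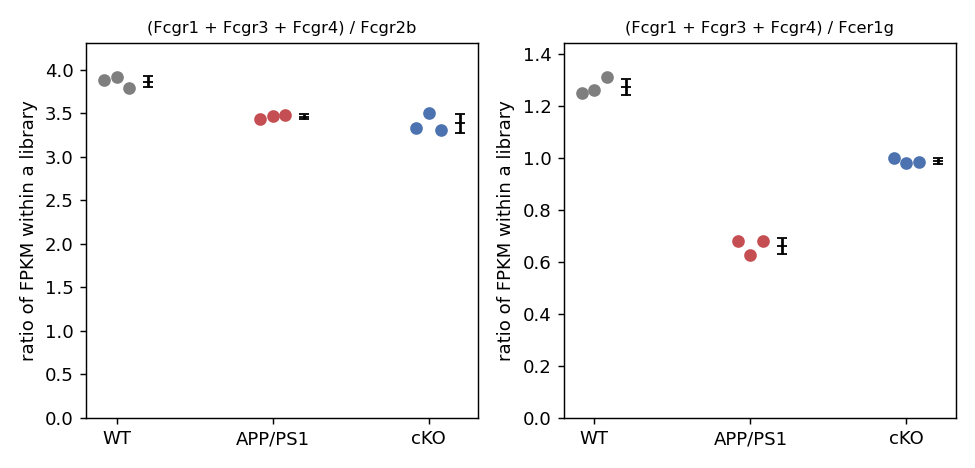
Ratios of summed FPKM within each library (points), with mean ± SD (bars, n = 3), for the activating receptors over Fcgr2b (left) and over Fcer1g (right). On the left the model groups overlap near 3.4, and on the right APP/PS1 lies near 0.66, cKO near 0.99 and WT near 1.28.

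Partners and signalling genes of the receptors were taken from lists that were put together with results of these data known. Of 9 tested adaptor and partner genes, 4 were higher and 5 lower in cKO than in APP/PS1, with a median log2 change of −0.45. The shares over all tested genes were 27.3% higher and 27.7% lower. Tyrobp, which encodes DAP12, the adaptor of TREM2, fell by 0.86 (SE 0.05, adjusted p = 3.7e-07) after standing at 2.01 in APP/PS1 against WT (SE 0.06, adjusted p = 4.05e-10), and Hcst, which encodes the adaptor DAP10, fell by 0.65 (SE 0.10, adjusted p = 5.59e-06). Both are short, and with length offsets Tyrobp gave −0.33 while the call of Hcst was lost (−0.12, adjusted p = 0.353). The C-type lectin receptors that signal through FcRγ did not move as one. Clec4e (Mincle) rose by 2.89 (SE 0.05, adjusted p = 5.17e-25) and Clec4d (MCL) by 2.19 (SE 0.08, adjusted p = 1.52e-18) in cKO, and Clec4n (dectin-2) fell by 1.12 (SE 0.08, adjusted p = 4.64e-12). Pirb, an inhibitory immunoglobulin-like receptor, rose by 1.84 (SE 0.05, adjusted p = 3.52e-19). In APP/PS1 against WT, 5 of the 9 were higher and 4 lower with a median of 0.26, which turned negative on log2(TPM + 1) (−0.17) and with length offsets (−0.44). The median between the model groups also turned with length offsets (0.09).

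Downstream kinases and adaptors were counted in the same way. Of 21 genes of activating Fc receptor signalling, 14 were higher and 1 lower in cKO than in APP/PS1 (median 0.22), and 3 were higher and 18 lower in APP/PS1 than in WT (median −0.21). Against WT, cKO had 7 of the 21 higher and 8 lower (median 0.01). Over all tested genes the shares called higher and lower were 27.3% and 27.7% between the model groups. They were 26.9% and 32.0% in APP/PS1 against WT, and 24.7% and 23.0% in cKO against WT. Syk rose by 0.38 (SE 0.03, adjusted p = 1.18e-10) between the model groups, the Src-family kinase gene Fgr by 2.09 (SE 0.05, adjusted p = 1.1e-21), the exchange factor gene Vav3 by 1.63 (SE 0.11, adjusted p = 4.64e-13) and the GTPase gene Rac2 by 1.04 (SE 0.04, adjusted p = 3.35e-19). Of 11 genes of inhibitory signalling, 7 were higher and none lower in cKO than in APP/PS1 (median 0.16), and none was higher and 10 were lower in APP/PS1 than in WT (median −0.20), while cKO against WT had 1 higher and 3 lower (median −0.08; 6 lower with the replicate block). Among them, Dok3 rose by 1.05 (SE 0.07, adjusted p = 4.65e-11) and Inpp5d, encoding SHIP-1, by 0.16 (SE 0.03, adjusted p = 6.3e-05). On log2(TPM + 1) 11 of the 11 inhibitory genes were higher in cKO than in APP/PS1, and DESeq2's test called 6 of them in APP/PS1 against WT. In cKO against WT, 9 of the 11 were called with library totals, TPM or FPKM. There 2 were called with DESeq2's size factors or test, with length offsets, or without cKO replicate 1. Neutrophil markers moved in the same directions: 14 of 14 were higher in cKO than in APP/PS1 (median 3.4), and 14 of 14 were lower in APP/PS1 than in WT (median −1.79). Monocyte markers, with 8 of 10 higher in cKO than in APP/PS1, summed to 1219 to 1280 CPM in APP/PS1 and 1951 to 2017 in cKO. The part of these cells in the values of Fgr, Rac2, Clec4e, Clec4d, Pirb and the other signalling genes was not tested. Border macrophage markers, by contrast, were lower in cKO than in APP/PS1 for 8 of 8 genes and summed to 707 to 713 CPM in APP/PS1 and 591 to 598 in cKO, and their part in the lower receptor levels was not tested either. NK and T cell markers summed to 29.4 to 29.8 CPM in WT, 50.1 to 51.6 in APP/PS1 and 32.2 to 33.8 in cKO. Of the 8 tested, 6 were lower in cKO than in APP/PS1, and their part in the receptor levels was not tested.

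Of 12 other genes of the Fc receptor family, 8 passed the filter. In APP/PS1 against WT, 4 fell, beside 32.0% of all tested genes, and Fcrl1, the only one called higher, is described above with no test. The IgM receptor gene Fcmr had 48, 55 and 45 estimated counts across WT libraries, 9, 3 and 6 in APP/PS1 and 5, 4 and 8 in cKO, or −2.88 on the log2 scale in APP/PS1 (SE 0.31, adjusted p = 8.35e-09). Fcer2a, the low-affinity IgE receptor CD23, had 40, 39 and 47 estimated counts in WT, against 8, 8 and 15 in APP/PS1 (−1.88, SE 0.31). Both are B cell genes, like Fcrla, an intracellular receptor-like protein, which had 25 in each WT library, against 8, 7 and 6 in APP/PS1 (−1.69, SE 0.32, adjusted p = 6.65e-05). Fcrla had 19, 34 and 31 in cKO, higher than in APP/PS1 (1.94, SE 0.32, adjusted p = 9.34e-06). Low counts set wide errors on all 3. Fcmr and Fcer2a passed the filter only through WT, where they were high, so they are counted among the 4 but given with no p-value.

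The mast cell and basophil receptor for IgE also uses Fcer1g. Its β chain gene Ms4a2 had 18, 16 and 24 estimated counts across WT libraries, 1, 4 and 2 in APP/PS1 and 25, 18 and 20 in cKO, with log2 changes of −2.86 (SE 0.45, adjusted p = 4.11e-06) in APP/PS1 against WT and 3.06 (SE 0.44, adjusted p = 1.24e-06) in cKO against APP/PS1. The mast cell markers, of which Ms4a2 is one, did not move together: between the model groups 2 of 6 were higher (Ms4a2 and Kit) and 2 were lower, the chymase gene Cma1 at −1.25 (SE 0.20, adjusted p = 5.78e-06) and the protease gene Mcpt4 at −0.90 (SE 0.18, adjusted p = 0.000122), with a median of −0.25. The call of Mcpt4 was lost with length offsets (−0.36, adjusted p = 0.0919). None of the 6 was at 0, and they summed to 21.9 to 25.7 CPM in WT, 15.6 to 16.8 in APP/PS1 and 16.3 to 18.3 in cKO. The part of mast cells in the Ms4a2 values was not tested. Its α chain gene Fcer1a had 12, 12 and 13 in APP/PS1 and 24, 28 and 27 in cKO (1.04, SE 0.27, adjusted p = 0.00186). Trim21, a cytosolic antibody receptor, gave 0.04 in APP/PS1 against WT (adjusted p = 0.759) and −0.04 between the model groups (adjusted p = 0.754). Between the model groups 3 of the 8 genes were thus higher, beside 27.3% of all tested genes, 4 did not pass the test, and Fcrl1 is described above. With a stricter filter of 10 counts in every library, Fcmr, Fcer2a, Fcrla and Ms4a2 were not tested.

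Of 13 genes for the ligands of these receptors (antibody chains and albumin), 2 were found by symbol among the 18571 genes, and the other 11 were not found there. Jchain, which joins IgA or IgM units and marks antibody-secreting cells, rose by 3.63 in cKO against APP/PS1 (SE 0.05, adjusted p = 2.68e-28) and fell by 0.58 in APP/PS1 against WT (SE 0.05, adjusted p = 7.82e-10). Alb gave −0.98 between the model groups (SE 0.37, adjusted p = 0.027) with overlapping libraries, and the call was lost with DESeq2's test (adjusted p = 0.156), on log2(TPM + 1) (limma adjusted p = 0.0809), on log2(FPKM + 0.1) (limma adjusted p = 0.0517), without APP/PS1 replicate 1 or 3 and without cKO replicate 2 or 3.

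For the other 6 genes, the nearest genes in pattern by the same measure were Tmem159 for Fcgr1 (0.0577), the mitochondrial subunit gene Uqcrc2 for Fcgr3 (0.0257), Mtpap for Fcgr4 (0.0166), the G-protein regulator gene Rgs2 for Fcgr2b (0.0272), Tmem160 for Fcer1g (0.0497) and the heat shock gene Hspa2 for Fcgrt (0.0423), each among 9162 genes over 9 libraries. Next after Tmem160, Fcer1g lay closest to Uqcr11 (0.062), another gene of the respiratory chain, and Ttr (0.0625), which encodes transthyretin.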

How the data were processed

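RNA from 9 libraries was read as 50-base single ends after poly(A) selection, per the labels' protocols. The submitters' processing notes name HISAT, Bowtie2, DESeq2 and build GRCm38.p6, with no versions of the tools. The authors deposited, per library, estimated counts, FPKM and TPM in 1 table of 18571 genes; a further deposited count column, scaled by 1 factor per library, was a signal that was not used. Estimated counts were rounded to whole numbers. edgeR 4.0.16 (R 4.3.3) fitted all 9 libraries with TMM scaling, its filter on low counts, robust quasi-likelihood dispersion and 1 mean per group; p-values were adjusted by Benjamini-Hochberg over 14696 genes, with a threshold of 0.05. Every adjusted p is from this fit unless another tool is named. CPM are TMM-scaled. The SE is the log2 change divided by the square root of its F statistic.

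Members and gene lists were chosen with earlier results of these data known. Besides the 7 members and other Fc family genes, the text names list genes with the most extreme called changes, the gene next below Fcrls, pattern neighbours (5 for Fcrls, up to 3 for others), Gja1 and Ddx3y as checks, and neighbouring genes; Fcrl5, Cd5l and Inpp5d among others were named for their place or role. Alternatives were other scalings, DESeq2 1.42.0, limma 3.58.1 on log2(TPM + 1), log2(FPKM + 1) and log2(FPKM + 0.1), filters, fits of 2 groups, offsets from 10 bins of transcript length, a replicate block and leaving out each library. Replicate numbers recur across groups, and the labels do not say what they mark. Deviations of same-numbered libraries from their group means over 10813 genes correlated at 0.142 to 0.277 between WT and APP/PS1 and at 0.104 to 0.289 between WT and cKO, above 0.1 in every pair. Different numbers had a mean of −0.1. Centring on group means pulls that mean below 0 once same numbers correlate, so it is no separate evidence. A pairing by number in the comparisons with WT is thus read from the data alone, and it was used only in the replicate block. The main fit has no block, so its SE and adjusted p are unpaired in every comparison. Replicates within a group differed beyond counting noise (chi-square per gene 1.81 to 3.54, against 71.2 to 133 between groups), so none was merged. In simulated data for cKO against APP/PS1 with 14618 genes and 200 changed, the fit recovered 98% of genes changed 0.5-fold, 69.6% of those changed 0.8-fold, 70% of those changed 1.25-fold and 100% of those changed 2-fold, with 3.95% false calls. The simulation had a constant variation of 3% and no length trend, and it changed far fewer genes than the 8085 called in the data. It therefore checks the code only and cannot give the rates of recovery or false calls in these data.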

Additional observations from a re-analysis of the deposited data

How the results depend on the processing

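The median log2 change of all genes in APP/PS1 against WT went to −0.17 with library totals, −0.35 on log2(TPM + 1), −0.11 on log2(FPKM + 1) and −0.16 on log2(FPKM + 0.1), and the share of higher genes among those called went from 45.7% to 29.5%, 14.7%, 30.2% and 30.2%. For cKO against WT that share went from 51.9% to 30.4%, 19.8%, 32.0% and 31.9%, and between the model groups from 49.6% to 75.3% on TPM. Fcrls against WT accordingly moved to 2.88, 2.63, 2.88 and 2.89 in APP/PS1 and to 2.57, 2.48, 2.56 and 2.57 in cKO. Relative to the median of all genes it was 3.05 with library totals and 2.98 on TPM in APP/PS1. It was 2.97 in APP/PS1 with length offsets, with or without the replicate block, and 3.05 when only the groups compared were fitted.

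Between the model groups, Fcgr4 gave −0.16 with DESeq2 (adjusted p = 0.138), 0.03 on TPM, −0.00889 with length offsets and −0.00888 with length offsets and the replicate block, and Fcgrt gave −0.05 on TPM (limma adjusted p = 0.384). The calls of Fcrls, Fcgr1, Fcgr3, Fcgr2b and Fcer1g held under all alternatives run. Signs turned on TPM for Fcgr3 in cKO against WT (−0.07) and, in APP/PS1 against WT, for Sparc (−0.03), Trim21 (−0.30), Gja1 (−0.14), Ddx3y (−0.21) and Mcpt4 (−0.32), and with length offsets for Cx3cr1 (0.08) and Mcpt4 (−0.67) in APP/PS1 against WT and for Cox6a2 between the model groups (0.17), the same with the block.

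Deviations of same-numbered libraries of the model groups correlated at 0.0549 to 0.233, under 0.1 in 1 of 3 pairs, so pairing there is only a hint from the data, as is the fact that 9 of 9 libraries correlated best with their own number. The replicate block took the biological coefficient of variation from 3.14% to 0.988% and changed no call of a single gene whose adjusted p the report prints. It raised some counts between the model groups: to 15 higher for activating and 8 for inhibitory signalling, 10 higher and 15 lower for the homeostatic list, 8 higher for the plaque list and 9 higher for monocyte markers. With the replicate block the genes called numbered 8851 between the model groups (8085 without it), 9319 in APP/PS1 against WT (8670) and 7934 in cKO against WT (7010).

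Leaving out 1 library at a time gave 7345 to 8133, 8024 to 8763 and 6291 to 7133 genes called in these comparisons, differences of −0.142 to −0.0473 and of 0.31 to 0.336 in the ratios to Fcgr2b and to Fcer1g, and no lost call among the 7 genes. Without the third cKO library, Fcer2a passed the test between the model groups (−1.38, adjusted p = 0.0301). Depth (18907680 to 19565354 estimated counts per library) limits the genes with few counts, such as Fcmr and Ms4a2.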
